A study of Mus musculus with 6 samples.

Results

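The 10 genes described here encode enzymes that add or remove methyl groups on histone lysines, together with subunits such enzymes need. They were chosen by name, and all 10 of them were rows among the 25239 genes of the count table. All 10 had a count in at least 1 library, and 9 passed the filter on low counts that was applied to every gene. Their transcripts were counted in 6 single-oocyte libraries from CD-1 mice aged 4 to 6 weeks. CD-1 is an outbred strain, and all the oocytes were at the germinal vesicle stage, in which the nucleus is still intact and meiosis is arrested. Cumulus-oocyte complexes, oocytes with the follicle cells around them, were microinjected with water in one group and with a mixture of phthalate metabolites in the other. Phthalates soften plastics, and the body turns them into the metabolites used here. Every complex of either group was then cultured in maturation medium with follicle-stimulating hormone and serum before the oocyte was taken. The labels give neither the dose nor the members of the mixture.

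Each group had 3 libraries, numbered 1 to 3 by their titles. The labels name no animal or culture and do not settle if 1 or 3 oocytes were used per group, so each group counted as 1 sample. No difference between the groups was tested, and differences between libraries of a group may be technical. Total gene counts ran from 252267 to 300917 per library. The 12 oocyte markers checked took 7337 to 9077 counts per library. The 20 cumulus and granulosa markers took 13 to 39 counts per water library and 10 to 24 per phthalate library, and 11 of the 20 were at 0 in every library, among them Amh, Foxl2 and Ptx3. Of the 20, Nr5a2 held most of the counts. These follicle cell markers summed to 75 counts after water injection and 53 after phthalate. Their part in the results below was not tested. Fewer transcripts per oocyte and a smaller share of the library cannot be told apart from these counts.

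Methyl groups on histone lysines mark chromatin as active or silent, depending on the lysine. Methylation of H3K4 marks active promoters and enhancers, that of H3K36 marks transcribed gene bodies, and that of H3K9 and H3K27 marks silent chromatin. In the growing oocyte these marks are laid down over the genome together with DNA methylation, and they form part of what the egg passes to the embryo. The full-grown oocyte has largely stopped transcription, so its messenger RNA is a store built up earlier.

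Ezh2 and Ehmt2 stood at the ends of the order of levels given below, and the bases before their transcription starts are shown for that reason. The RefSeq promoter table (GRCm38.p6, the assembly behind mm10, the build named in the submitters' processing notes) held 10 promoters for 9 of the members. Ezh2 lies on the minus strand of chromosome 6 and its promoter bases are chr6:47595031-47595280. Ehmt2 lies on the plus strand of chromosome 17 and had 2 listed starts, with promoter bases chr17:34898224-34898473 and chr17:34898720-34898969. In the GENCODE M21 annotation Ezh2 reaches to base 47595341 and Ehmt2 begins at base 34898469. The Ezh2 run and the run of Ehmt2 start 2 therefore lie inside the genes as annotated there. Each run below is 250 bases, written 5′ to 3′ up to the base before the RefSeq start, with every CG dinucleotide in capitals.
Ezh2: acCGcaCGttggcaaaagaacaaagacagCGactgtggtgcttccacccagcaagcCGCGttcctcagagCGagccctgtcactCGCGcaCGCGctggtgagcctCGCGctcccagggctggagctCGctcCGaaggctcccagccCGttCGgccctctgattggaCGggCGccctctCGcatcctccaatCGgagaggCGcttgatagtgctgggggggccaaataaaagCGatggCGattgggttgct
Ehmt2 start 1: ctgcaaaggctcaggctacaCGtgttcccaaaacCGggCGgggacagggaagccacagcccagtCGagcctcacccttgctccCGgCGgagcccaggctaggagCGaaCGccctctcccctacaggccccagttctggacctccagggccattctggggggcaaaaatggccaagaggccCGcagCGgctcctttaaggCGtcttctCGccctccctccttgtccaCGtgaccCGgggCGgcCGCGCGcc
Ehmt2 start 2: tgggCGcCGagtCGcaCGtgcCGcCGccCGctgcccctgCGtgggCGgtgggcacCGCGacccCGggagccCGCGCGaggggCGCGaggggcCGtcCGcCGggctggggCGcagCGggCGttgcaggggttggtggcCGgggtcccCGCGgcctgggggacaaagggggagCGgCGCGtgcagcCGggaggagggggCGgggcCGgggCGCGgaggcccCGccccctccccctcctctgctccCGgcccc
The Ezh2 run held 23 CG dinucleotides, more than 86.7% of the 32851 promoters in the table. The Ehmt2 runs held 18 and 36, more than 78.3% and 97.4% of them. The median promoter held 6, and 92.1% of promoters held at least 1. All 10 promoters of members were above that median, from 12 CG dinucleotides in Eed to 37 in Suz12. The gene with the highest level and the gene with the lowest therefore both had a CG-rich start in the reference sequence, which says nothing of its methylation in these oocytes.

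Levels of different genes were compared as counts per kilobase of the longest annotated transcript per 1000000 gene counts, as mean and SD over the 6 libraries. That SD describes the spread of these libraries over both groups and is no error of a treatment. Ezh2 was the most abundant member, at 270 ± 28.1 (SD, n = 6 libraries). Eed followed at 94.1 ± 13.0 (SD, n = 6 libraries), then Suz12 at 44.7 ± 15.4 (SD, n = 6 libraries) and Setdb1 at 42.2 ± 14.1 (SD, n = 6 libraries). Ezh2, Eed and Suz12 are the core of Polycomb repressive complex 2 (PRC2), which methylates H3K27. By the longest transcript they held the first 3 places. Next came Kmt2d at 26.7 ± 3.52, Kdm1a at 16.4 ± 5.62, Kdm1b at 15.6 ± 6.16 and Kmt2b at 15.6 ± 4.22 (SD, n = 6 libraries each). Setd2 stood at 8.40 ± 3.83 (SD, n = 6 libraries), and Ehmt2 was last, at 0.603 ± 0.940 (SD, n = 6 libraries). The lowest Ezh2 library (228) was above the highest Eed library (109), and the lowest Eed library (70.5) was above the highest Suz12 library (65.1). From Suz12 down to Setd2 the ranges of neighbours in the order overlapped. The order of such neighbours therefore does not go beyond the spread between libraries. Genes further apart could separate, since the lowest Suz12 (22.5), Setdb1 (21.0) and Kmt2d (21.6) libraries were above the highest Setd2 library (16.0). The lowest Setd2 library (5.66) was above the highest Ehmt2 library (1.97). With the median transcript length in place of the longest, Ezh2 stayed first and Ehmt2 last, Kmt2d moved from place 5 to place 2, and Eed went from place 2 to place 4. Without division by length, Kmt2d followed Ezh2 in mean counts per 1000000 gene counts, at 563 after water injection and 494 after phthalate. Setdb1, at 282 and 195, was then above Eed, at 211 and 178. How far counts rise with transcript length in these libraries was not tested.

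**Figure D1:**
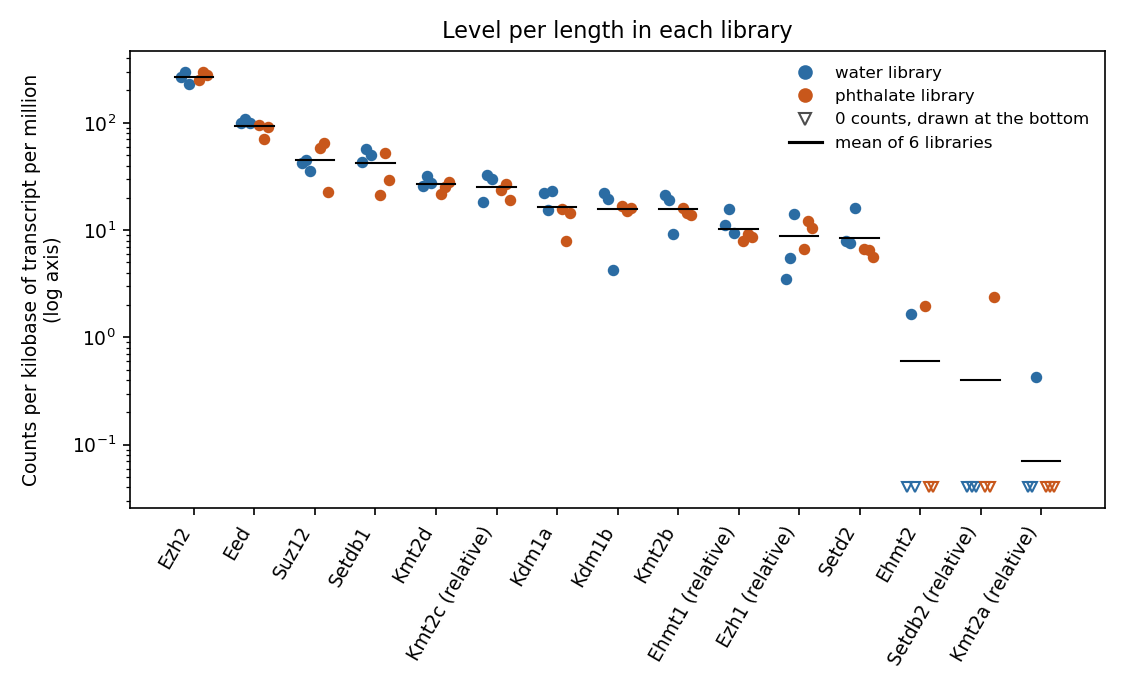
Counts per kilobase of transcript per 1000000 gene counts (log axis) for the 10 members and 5 relatives, 1 point per library, with the mean of the 6 libraries as a line and 0 counts as open triangles at the bottom. Ezh2 lies above every other gene shown in all 6 libraries, and Ehmt2, Setdb2 and Kmt2a lie at or near 0.

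PRC2 was taken first. Ezh2 encodes its catalytic subunit, Eed the subunit that binds methylated H3K27, and Suz12 a scaffold subunit. Ezh2 had 746, 827 and 634 counts per 1000000 gene counts (CPM) after water injection, in the order of libraries 1 to 3, and 694, 837 and 771 after phthalate. The groups overlapped, and its highest library was only 1.32 times its lowest, the narrowest spread of the 9 members with counts in every library. The log2 ratio of phthalate over water, from summed counts, was 0.081 (95% counting interval -0.15 to 0.31), from 630 and 634 counts, and -0.011 without water library 3. The interval covers counting error only and was computed on counts halved to read pairs, since both mates of a pair appear to have been counted.

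Eed had 204, 226 and 204 CPM after water injection and 198, 146 and 189 after phthalate. All 3 phthalate values lay below the 3 water values, by a small gap, and the log2 ratio was -0.25 (-0.71 to 0.21). The groups overlapped once the CPM were scaled by TMM factors, which correct library totals for differences in composition. Suz12 had 186, 196 and 155 CPM after water injection and 254, 285 and 98.2 after phthalate. Phthalate libraries 1 and 2 were above every water library and phthalate library 3 was below every one. Its log2 ratio of 0.27 (-0.19 to 0.73) became 0.57 without phthalate library 3 and -0.0063 without phthalate library 2. The sum of the 3 subunits was 1135, 1250 and 994 CPM after water injection and 1146, 1268 and 1058 after phthalate, with a log2 ratio of 0.057. Ezh2, Suz12 and Eed share 174, 178 and 261 exonic bases with noncoding genes on the opposite strand, of which the one at Eed had 0 counts in every library.

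Within a library, Ezh2 was compared per kilobase with Ezh1, the related catalytic subunit of non-dividing cells. Ezh2 was higher in 6 of 6 libraries, by 16.0 to 75.9 times, and by 30.8 times over the summed counts (95% counting interval 21.5 to 45.7). With median transcript lengths it was again higher in 6 of 6, by 10.0 to 47.5 times and by 19.3 times over the sums. Ezh2 was also 4.29 to 12.3 times as high as Suz12, and Eed was 1.08 to 4.08 times as high as Suz12. With median transcript lengths Ezh2 over Suz12 ran from 1.99 to 5.72, and Eed was above Suz12 in 4 of 6 libraries, with ratios of 0.481 to 1.81 and 0.935 over the sums, so the order of Eed and Suz12 turned with the length used. Both highest values came from phthalate library 3, the library with the fewest Suz12 counts. The 3 genes whose CPM followed Ezh2 most closely over the 6 libraries, of 2783 genes searched, were Cox6b1 (r = 0.951), Lman2 (0.944) and Casp8ap2 (0.938). These correlations are the highest of that search over 6 points that share their libraries and depth, and are given as a description.

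**Figure D2:**
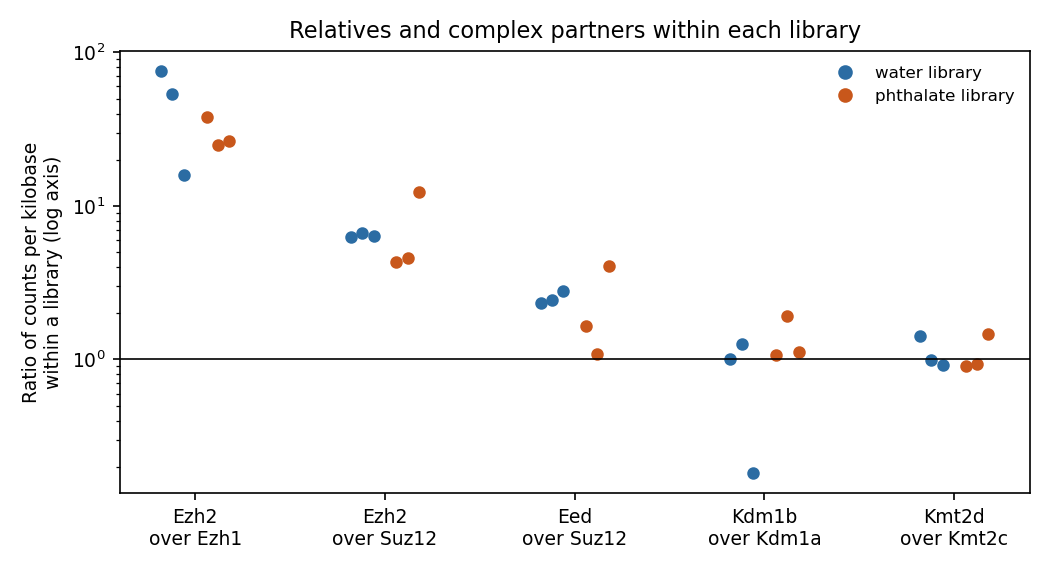
Ratio of counts per kilobase between 2 genes within each library (log axis), 1 point per library, with a line at equal levels. Ezh2 over Ezh1 lies between 16.0 and 75.9, while Kdm1b over Kdm1a and Kmt2d over Kmt2c lie on both sides of the line with the longest transcripts; with median lengths Kmt2d over Kmt2c lies above the line in 6 of 6 libraries and Kdm1b over Kdm1a below it in all but phthalate library 2.

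Of the H3K4 methyltransferases, Kmt2b is the one best known from oocytes, where it deposits broad H3K4 methylation outside active promoters, and Kmt2d mainly acts at enhancers. Kmt2d had 508, 638 and 543 CPM after water injection and 428, 498 and 557 after phthalate. The groups overlapped and the log2 ratio was -0.17 (-0.45 to 0.10). Kmt2b had 178, 163 and 77.5 CPM after water injection and 135, 122 and 116 after phthalate. Water library 3 was low and the other 2 water libraries were above all phthalate libraries. The log2 ratio was -0.15 (-0.72 to 0.41), -0.43 without water library 3, 0.036 without water library 1 and 0.0050 without water library 2, so its sign turned with the library left out. Kmt2a, the closest relative of Kmt2b, had 2 counts in all 6 libraries against 221 for Kmt2b. Per kilobase that is a ratio of 215 (95% counting interval 37.8 to 8564), or 590 with median transcript lengths. The ratio of Kmt2d to its relative Kmt2c depended on the transcript length used. It ran from 0.906 to 1.46, and was 1.06 over the sums (0.915 to 1.23), with the longest transcripts, but from 6.57 to 10.6, and 7.68 over the sums, with median lengths.

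Setdb1 and Ehmt2 encode H3K9 methyltransferases. SETDB1 silences retroviral elements, and EHMT2, also called G9a, works in a complex with EHMT1. Setdb1 had 241, 319 and 285 CPM after water injection and 119, 298 and 167 after phthalate. Phthalate libraries 1 and 3 were below every water library, and phthalate library 2 was within the water range. The log2 ratio was -0.49 (-0.91 to -0.073), from 242 and 164 counts, the only one of the 10 whose counting interval lay wholly on one side of 0. Among all 4644 genes that passed the filter, 9.19% had such an interval, so 1 member is near the background. It was -0.93 without phthalate library 2, -0.60 without water library 1 and -0.23 without phthalate library 1. The spread within the phthalate group (SD 92.8 CPM, n = 3) was wider than the gap between the group means of 282 and 195 CPM. Cers2 shares 75 exonic bases with Setdb1 on the opposite strand. It had 4 to 10 counts per library. Setdb1 also shares 249 exonic bases with Gm37500, an unclassified transcript on the opposite strand, and the use of strand in counting is not stated.

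Ehmt2 had 2 counts in water library 2, 2 in phthalate library 1 and 0 in the other 4 libraries. A count of 0 allows up to 3 read pairs, or 6 counts, which is 22.3 CPM in water library 1, 21.1 in water library 3, 20.3 in phthalate library 2 and 21.8 in phthalate library 3, for counting error only. Ehmt2 did not pass the filter on low counts, and no difference between the groups was detectable at this depth. Its partner Ehmt1 had 12 to 28 counts per library. Per kilobase, Ehmt2 was lower than Ehmt1 in 6 of 6 libraries, at 0.0570 of its level over the sums (95% counting interval 0.00700 to 0.216). Setdb2, the relative of Setdb1, had 2 counts in all against 406 for Setdb1, a ratio per kilobase of 109 (19.3 to 4325).

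Setd2 encodes the enzyme of H3K36 trimethylation, which in oocytes precedes DNA methylation of gene bodies. It had 66.8, 63.1 and 134 CPM after water injection and 55.5, 54.2 and 47.3 after phthalate. All 3 phthalate libraries were below the 3 water libraries, and water library 3 stood far above the rest. The log2 ratio was -0.73 (-1.57 to 0.072), from 75 and 43 counts. Leaving out 1 library gave from -0.92 (water library 2) to -0.29 (water library 3).

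Kdm1a and Kdm1b encode flavin-dependent demethylases that remove methyl groups from H3K4. KDM1B acts in growing oocytes ahead of DNA methylation at imprinted genes, and KDM1A is the more widely expressed of the pair. Kdm1a had 66.8, 46.5 and 70.5 CPM after water injection and 47.6, 23.7 and 43.6 after phthalate. Water libraries 1 and 3 were above all phthalate libraries, and water library 2 lay just below phthalate library 1. The log2 ratio was -0.67 (-1.68 to 0.29), from 52 and 31 counts. It was -0.37 without phthalate library 2, -0.55 without water library 3 and -0.84 without phthalate library 3. Kdm1b had 111, 96.4 and 21.1 CPM after water injection and 83.2, 74.6 and 80.0 after phthalate. Its sums were equal at 65 counts, and the log2 ratio was 0.072 (-0.68 to 0.82). Leaving out water library 3, its lowest, gave -0.37, and leaving out water library 1 gave 0.41. Per kilobase, Kdm1b was higher than Kdm1a in 5 of 6 libraries, with a ratio over the sums of 0.951 (0.635 to 1.44). With median transcript lengths it was higher in 1 of 6, and the ratio over the sums was 0.542 (0.362 to 0.820), so the direction per library turned with the length used. Dek shares 505 exonic bases with Kdm1b on the opposite strand, with 50 to 84 counts per library.

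**Figure D3:**
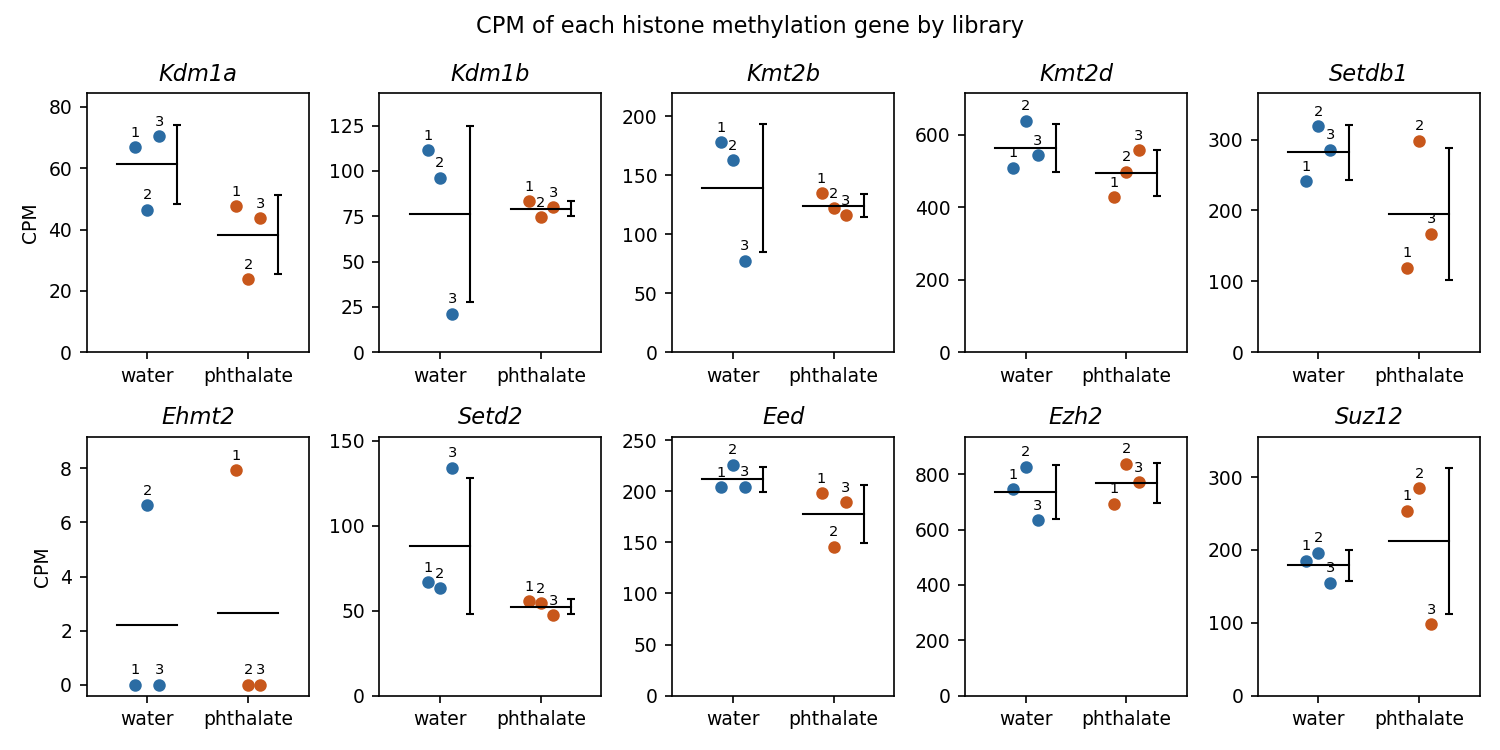
CPM of each of the 10 genes in each library, numbered 1 to 3, with the mean (line) and SD (bar) of each group of 3. Eed and Setd2 are the genes whose groups do not overlap, and for Ehmt2, with 4 counts in all, the SD is not drawn.

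The comparison of the groups asks how the mixture affects the transcripts of the oocyte. Of the 9 members that passed the filter, 2 were at least 1.5-fold lower in the phthalate group, Kdm1a and Setd2, and 0 were at least 1.5-fold higher. Over all 4644 genes that passed, 8.14% were at least 1.5-fold lower and 6.96% at least 1.5-fold higher, 15.1% in all. The share of genes past 1.5-fold fell with abundance. At a mean count of 10 to 20 per library it was 24.8% of 1655 genes, and the 2 members in that range were Kdm1a and Setd2. At 20 to 50 it was 11.9%, at 50 to 100 it was 2.70% and at 100 to 500 it was 1.51%, and 0 of the 7 members in these ranges passed. These ranges were set with the members' values known, and with 9 members the counts are a description. None of the 9 reached 2-fold, against 2.78% of all genes. The median log2 ratio of the 9 was -0.17, with 6 below 0 and 3 above, and over all genes it was 0.0089, with 48.8% below 0. Without water library 3 neither Kdm1a (-0.55) nor Setd2 (-0.29) passed 1.5-fold. Without phthalate library 2 Kdm1a (-0.37) did not and Setdb1 (-0.93) did. Setdb1 (-0.60) also passed without water library 1.

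**Figure D4:**
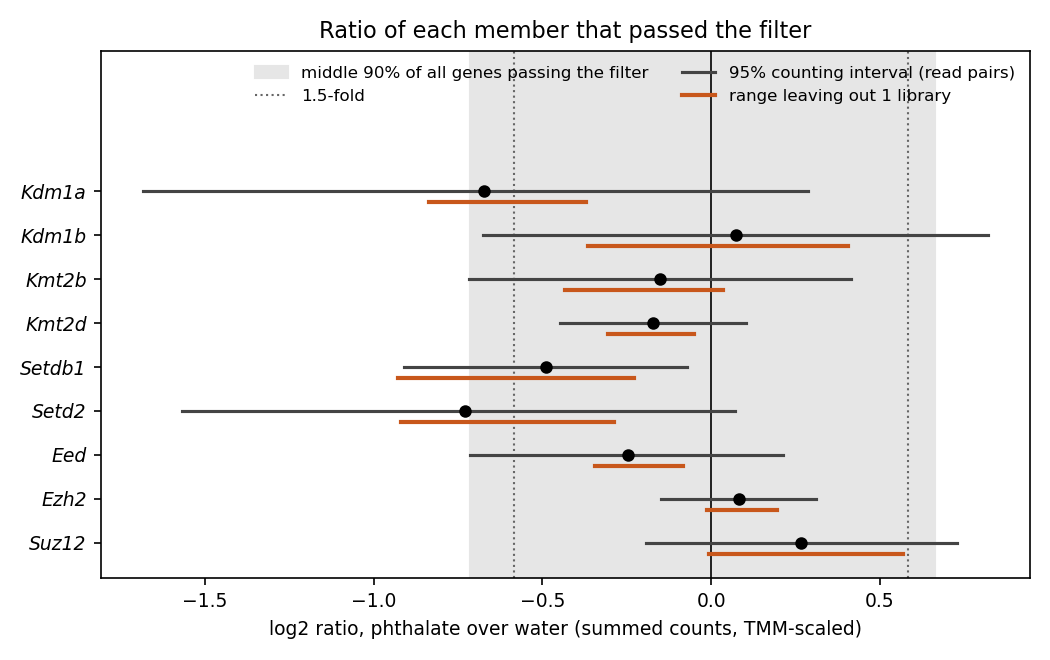
Log2 ratio of phthalate over water for the 9 members that passed the filter, with the 95% counting interval on read pairs (grey line), the range on leaving out 1 library (orange line), the middle 90% of all 4644 genes (band, -0.72 to 0.66) and 1.5-fold (dotted lines). Kdm1a and Setd2 lie past the lower 1.5-fold line, Setd2 (-0.73) also just past the lower edge of the band, and the interval of Setdb1 alone lies wholly on one side of 0, as for 9.19% of all genes.

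The CPM of the groups did not overlap for 2 of the 9, Setd2 and Eed, both lower in the phthalate group. Over all genes that passed the filter 10.0% did not overlap, 5.49% with phthalate below and 4.52% with phthalate above. With TMM-scaled CPM the count was again 2, now Kdm1a and Setd2, against 10.1% of all genes.

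**Figure D5:**
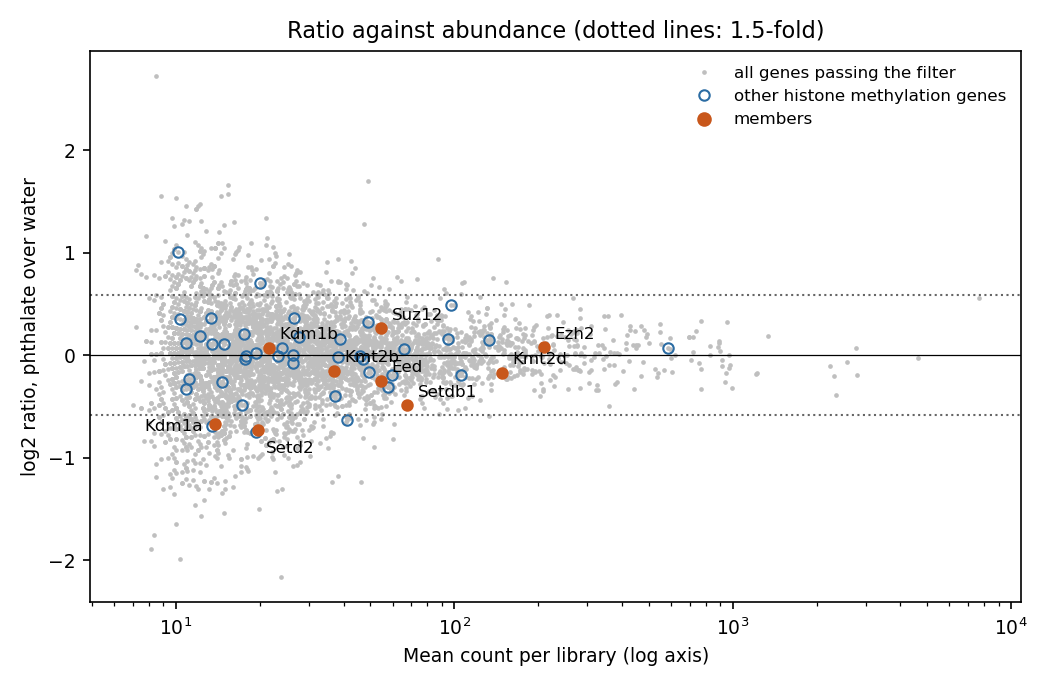
Log2 ratio of phthalate over water against the mean count per library (log axis) for all 4644 genes that passed the filter (grey), other histone methylation genes (open circles) and the 9 members (orange, named). The spread of all genes narrows with abundance, and the members lie between -0.73 (Setd2) and 0.27 (Suz12).

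A wider list of 74 genes held further histone lysine methyltransferases and demethylases and partners of their complexes, and is not a complete catalogue. All 74 were in the table, 68 had a count and 40 passed the filter. Of the 40, 3 were at least 1.5-fold lower in the phthalate group and 2 at least 1.5-fold higher, 12.5% against 15.1% of all genes. Their median log2 ratio was 0.011, with 20 genes above 0 and 20 below. Among those with a mean count of at least 20, Phf1, a PRC2 accessory protein that binds H3K36 methylation, was the lowest in the phthalate group. It had 215, 163 and 162 CPM after water injection and 147, 98.3 and 102 after phthalate, groups that did not overlap, and a log2 ratio of -0.63 (-1.19 to -0.088). Of the 40 genes, 3 had groups that did not overlap with phthalate below and 1 with phthalate above, against 10.0% of all genes. A counting interval on 1 side of 0, as for Phf1 here and Nsd1 below, was found for 9.19% of all genes that passed the filter. Atf7ip, a partner of SETDB1, followed at -0.40 (-0.97 to 0.17), and Dpy30, a subunit of the H3K4 methyltransferase complexes, at -0.31 (-0.76 to 0.14).

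Among genes of the wider list with that same mean count of at least 20, Nsd2 and Nsd1, which methylate H3K36, had the highest log2 ratios. Nsd2 stood at 0.71 (-0.080 to 1.52) and Nsd1 at 0.49 (0.15 to 0.84), while Ash1l, also an H3K36 methyltransferase, stood at -0.33 with fewer counts. Nsd1 had 223, 359 and 285 CPM after water injection and 277, 522 and 396 after phthalate. Those groups overlapped. Phthalate library 2 was the highest for both genes, with 125 CPM for Nsd2 against 75.3 and 61.8 in phthalate libraries 1 and 3. Without phthalate library 2, 1 gene of the list was at least 1.5-fold higher, in place of 2. Hcfc1, a partner in H3K4 methyltransferase complexes, was the third at 0.36 (-0.31 to 1.04). Among the 40 genes of the list that passed the filter, the others past 1.5-fold had lower counts and were picked out after their values were seen. They were Rbbp5 (-0.75), Kdm5c (-0.69) and Kmt5a (1.00). Rbbp7, a histone-binding partner of PRC2, had the highest counts of the list, 431 to 712 per library, and a log2 ratio of 0.067 (-0.070 to 0.20).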

How the data were processed

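The file deposited by the authors holds raw counts per gene symbol for 25239 genes and 92 ERCC spike-in RNAs, per the file headers and values, from Smart-seq3 libraries sequenced as read pairs of 150 bp. The submitters' processing notes name cutadapt, Trimmomatic, HISAT2, DESeq2 and the build mm10; the counting tool, annotation, use of strand and handling of molecular identifiers are not given in the sources used here. ERCC counts stayed out of totals. CPM are counts per 1000000 gene counts. Of counts from 1 to 20, 69.9% were even and every library had more genes with 2 counts than with 1, so intervals used counts halved to read pairs. Genes were filtered with filterByExpr (minimum count 10, minimum total 15; edgeR 4.0.16, R 4.3.3). The counts of a group were summed and divided by TMM-scaled totals, with a sum of 0 set to 3 counts. Intervals are exact (Clopper-Pearson, 95%) for 2 counts given their sum; PCR copies are not independent molecules, so they cover counting error only. Ratios and intervals were tested on simulated read pairs that varied by counting error alone, each counted as 2. That check therefore does not cover further differences between libraries. Lengths and coordinates of overlaps came from GENCODE M21 (GRCm38), matched by symbol for 24366 genes. Named genes were the 10 members, the relatives in each pair, and the 3 genes of the wider list with the largest log2 ratio in each direction among those with a mean count of at least 20. The members, lists and rules were chosen with earlier results of these data known.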

Additional observations from a re-analysis of the deposited data

How the results depend on the processing

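The log2 ratios of the 10 members were recomputed under 11 alternatives: DESeq2 size factors (DESeq2 1.42.0), total counts, totals without Rn45s, ERCC counts, the mean of CPM, and each library left out in turn. In 1 case a ratio left its counting interval, that of Setdb1 without phthalate library 2 (-0.93). Leaving out 1 library gave members' medians from -0.31 (phthalate library 3) to -0.051 (water library 2) and wider-list medians from -0.0067 to 0.056. It gave from 0 to 3 members at least 1.5-fold lower, with 0 only without water library 3, against 8.46% to 10.4% of all genes. It gave from 2 to 4 members whose CPM did not overlap, with 4 without water library 3 or phthalate library 3, against 18.0% to 25% of all genes. For the wider list it gave from 1 (phthalate library 2) to 5 (water library 3) genes at least 1.5-fold higher, and from 2 to 5 (phthalate library 1) at least 1.5-fold lower.

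Scaling by ERCC counts moved the median of all genes to 0.12, the members' median to -0.056 and that of the wider list to 0.13. Under that scaling 1 member and 1 gene of the wider list were at least 1.5-fold lower. Lower calls then made up 5.19% of all genes and higher calls 10.4%. ERCC counts ran from 313 to 753 within the water group alone. At 2-fold, 0 members were lower, and the wider list had 1 gene higher and 0 lower. The share of all genes past the threshold was then 2.78%. Without a filter on low counts 39.7% of 12804 genes passed 1.5-fold, and 31.8% of the 8685 with more than 6 counts in a group, where a sum of 0 was set to 6. In the first of these a sum of 0 was set to 3 counts, so Kmt2a, with 2 counts after water injection and 0 after phthalate, comes out at 0.66, in the opposite direction to its counts. On counts as deposited the median width of the members' intervals was 0.65 in place of 0.93, and those of Kdm1a (-1.36 to -0.0053) and Setd2 (-1.31 to -0.17) also lay below 0, while 22.7% of all genes had an interval on 1 side of 0. The TMM-scaled CPM, that minimum of 6 counts and the median transcript length for pairs were added after the data were seen. The last turned Eed over Suz12 from 2.10 to 0.935. No paired analysis was possible because the labels name no animal or culture that the shared library numbers could pair, and the results come from no test. Kdm1a and Setd2 rested on 31 to 75 counts per group.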

Other observations

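Phf19, Kdm4b and Kdm7a lie outside the naming rule and were picked out after their counts were seen. Phf19, an accessory protein of PRC2 related to Phf1 and Mtf2, had 2, 4 and 5 counts after water injection and 0 in each of the 3 phthalate libraries, too few to pass the filter. Its counting interval reached up to 0.0067. Kdm4b, a demethylase that also failed the filter, went the other way, with 0, 2 and 0 counts after water injection and 4, 7 and 2 after phthalate. Without a filter, 4.01% of 12804 genes had CPM that did not overlap with phthalate below and 3.60% with phthalate above. Mtf2 had summed counts of 80 with water and 86 with phthalate. Kdm7a, a demethylase of H3K9 and H3K27, had 54 counts in water library 3 against 14 to 31 in the other 5 libraries. Water library 3 was also the highest library for Setd2, with 38 counts.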
